A study of Mus musculus with 9 samples.

Results

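Adipose tissue of 2 groups of male C57BL/6J mice that had no electroacupuncture was compared by RNA sequencing at day 21: the libraries titled MPX (numbers 2, 5 and 7) and CPX (numbers 4, 6 and 8). They are 6 of the 9 libraries of a study of high-fat-diet obesity and were chosen by their title prefix alone. The other 3 libraries came from mice given electroacupuncture, a current passed through acupuncture needles, and did not enter the fit. By the design text, the untreated groups differ in diet, either normal or high in fat. The labels used here do not say which prefix had which diet, so differences are given as MPX minus CPX and carry no diet direction. C57BL/6J is an inbred strain that readily becomes obese on fatty food. Age, feeding time and fat depot are not given in the labels, nor do they tie libraries to separate animals, so p-values measure the spread between libraries. The labels' extraction protocol speaks of retinas, but the tissue is labelled adipose. All 10 adipocyte markers of a list of 10 were in the table, whereas none of 9 retina markers was among its genes.

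White fat stores triglyceride in adipocytes. Their fatty acids come from the blood, through lipoprotein lipase and uptake proteins, or are made in the cell from glucose by citrate cleavage, carboxylation, chain building, elongation and desaturation. Hormones that raise cyclic AMP set off lipolysis, and leptin, secreted by adipocytes, reports the size of the stores to the brain. The tissue also holds vessels, fibroblasts that lay down matrix, macrophages and other immune cells, and in some depots lymph nodes or lymphoid clusters.

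The table holds 3958 genes, the most abundant of the series, with 12115183 to 14208853 counts per library summed over these genes. Those sums are not sequencing depths. Levels are CPM (counts scaled to a fixed library total) after TMM scaling, a factor per library that evens out composition (0.78 in CPX 4 and 1.02 to 1.12 in the other 5). A gene low in most libraries is in the table only if some library of the series was high, as with B cell genes in CPX 6. The table keeps genes with at least 8471 counts over the 9 libraries. Within these 6, several genes named below could reach that through 1 group only, among them Adcy5, Pltp, Hmgcs1 and Thbs1 through MPX. Their gaps and p-values are descriptions and no independent support. The CPX libraries were far less alike than the MPX libraries. The SD of log2 CPM over 3 libraries was larger in CPX for 3669 of 3957 genes (92.7%), with a median of 0.63 in CPX and 0.16 in MPX. CPX 6 stood apart most: it was the highest CPX library for 41.3% of genes and the lowest for 41.6%. Summed adipocyte markers were at 9477 CPM in CPX 6, at 112136 CPM in CPX 4 and at 53564 to 59071 CPM in CPX 8 and the MPX libraries. Summed B cell markers (13 of 17 in the table) were at 22478 CPM in CPX 6, 7064 CPM in CPX 8, 2686 CPM in CPX 4 and 734 to 1392 CPM in MPX. Most of that sum was the antibody genes Ighm and Igkc in each library. Cd79a, a part of the B cell receptor, had 6371 counts in CPX 6. It had only 25 and 63 in CPX 4 and 8 and 9 to 45 in MPX. No marker in the table was at 0 in any of the 6 libraries, and the smallest count was 1. None of 20 T and NK cell, 9 neutrophil, 14 skeletal muscle, 9 mesothelium or 10 brown fat markers was in the table, so those cells were not analysed here. In bulk tissue, fewer cells of a type and less of its RNA per cell cannot be told apart.

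**Figure D1:**
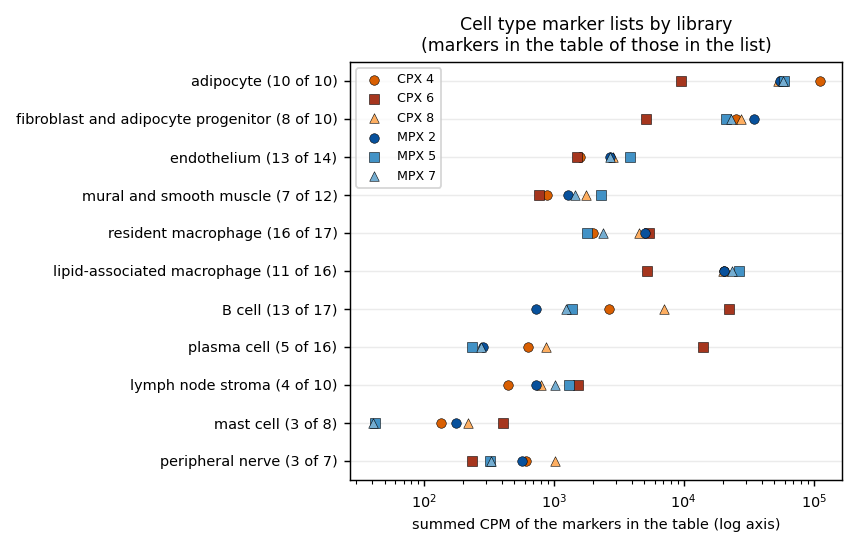
Summed CPM (x axis, log scale) of cell type markers in each of the 6 libraries, 1 point per library, for the lists with at least 3 markers in the table; the numbers give the markers in the table of those in the list. CPX 6 has the lowest adipocyte sum (9477 CPM) and the highest B cell sum (22478 CPM), and CPX 4 the highest adipocyte sum (112136 CPM).

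**Figure D2:**
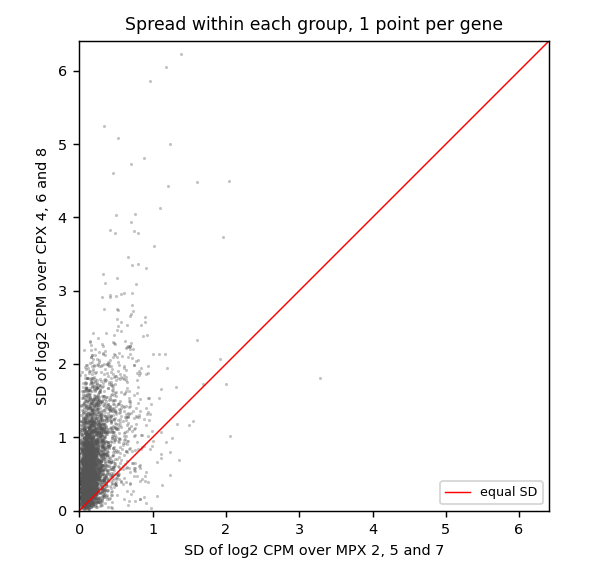
SD of log2 CPM within CPX (y axis) against that within MPX (x axis), 1 point per gene, with the line of equal SD in red. For 92.7% of genes the point lies above the line, so the CPX libraries varied more.

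No single gene passed the test of MPX against CPX. The quasi-likelihood test of edgeR called 0 of 3957 genes (0%) at an adjusted p of 0.05, and no adjusted p lay below 0.645. Before adjustment, 271 genes (6.85%) had p under 0.05, of which 109 were higher in MPX (2.75%) and 162 lower (4.09%). All 271 share the adjusted p of 0.645, so that value is not repeated for each gene below, and no difference given below passed that test. DESeq2 on the same libraries called 52 genes (1.31%), 29 higher and 23 lower in MPX, and limma voom called 0. A plainer measure was whether the libraries of the groups overlap at all. Every MPX library lay above every CPX library for 337 genes (8.52%) and below every CPX library for 305 genes (7.71%). Without scaling factors, these counts were 531 and 120, and the genes at an unadjusted p under 0.05 were 157 higher and 111 lower. With upper quartile factors they were 131 and 127. Leaving out the factors moved the median log2 difference of all genes from -0.11 to 0.0015, while the 3 other scalings tried left it between -0.13 and -0.02. Gaps between the groups were mostly narrow: the lowest library of the upper group was at least 1.5 times the highest of the lower group for 24 genes higher in MPX and 11 lower. The gap reached 2-fold for 4 genes higher in MPX (Adcy5, Pltp, Sfrp5 and Thbs1) and 7 lower, of which 3 (Jchain, Elovl6 and Sorl1) are not antibody segments or unnamed clones. Within these 6 libraries, the 4 higher genes could reach the table's minimum of 8471 counts only through MPX, and Jchain and Sorl1 only through CPX.

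**Figure D3:**
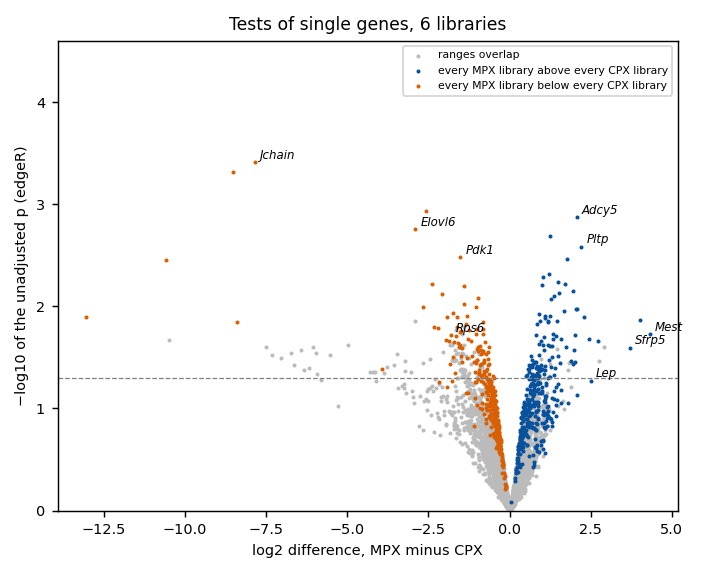
Log2 difference MPX minus CPX (x axis) and -log10 of the unadjusted p from edgeR (y axis), 1 point per gene; the dashed line is the threshold before adjustment, and colours mark genes whose libraries do not overlap between the groups. Jchain has the smallest p, and no gene passed after adjustment (smallest adjusted p = 0.645).

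Among the enzymes that make fatty acids, those of citrate cleavage (Acly), carboxylation of acetyl-CoA (Acaca) and elongation past palmitate (Elovl6) were lower in every MPX library than in any CPX library. The enzyme of the step between carboxylation and elongation (Fasn) overlapped between the groups. Elovl6, which lengthens palmitate (chromosome 3, 129532355 to 129638495 in mm10, plus strand), was at 314, 82.9 and 206 CPM in CPX 4, 6 and 8 and at 26.1, 17.5 and 37.2 CPM in MPX 2, 5 and 7. CPX 6, the lowest CPX library for this gene, also lay above all MPX libraries. The log2 difference was -2.90 (SE 0.57, n = 3 libraries per group), a 7.47-fold lower level, and DESeq2 gave an adjusted p of 7.65e-06. Acly, ATP citrate lyase, was at 1918, 495 and 1027 CPM in CPX against 257, 283 and 365 CPM in MPX, a log2 difference of -1.93 (SE 0.56, DESeq2 adjusted p = 0.0332). Acaca, the acetyl-CoA carboxylase of fatty acid synthesis, was at 1742, 354 and 1385 CPM in CPX against 341, 196 and 351 CPM in MPX. Here CPX 6 and MPX 7 nearly met, and the log2 difference was -1.97 (SE 0.65, DESeq2 adjusted p = 0.068). Fasn, the fatty acid synthase, was at 11430 and 10929 CPM in CPX 4 and 8, 2090 CPM in CPX 6 and 2161 to 3772 CPM in MPX, so the groups overlapped through CPX 6 (log2 difference -1.47, SE 0.74, DESeq2 adjusted p = 0.275).

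Promoters of 3 of these enzymes are shown: Elovl6 and Acly, whose groups did not overlap, and Fasn, whose groups did. They are RefSeq sequences (build GRCm38.p6) from 250 bases before to 50 bases after the start nearest to the gene start in the table. Capitals mark CCAAT, the letters bound by the factor NF-Y, and CACGTG, an E-box of the kind bound by ChREBP and other bHLH factors, each on either strand. The windows are chr3:129532136-129532435 (plus strand) for Elovl6, chr11:100527951-100528250 (minus strand) for Acly and chr11:120824498-120824797 (minus strand) for Fasn.
Elovl6: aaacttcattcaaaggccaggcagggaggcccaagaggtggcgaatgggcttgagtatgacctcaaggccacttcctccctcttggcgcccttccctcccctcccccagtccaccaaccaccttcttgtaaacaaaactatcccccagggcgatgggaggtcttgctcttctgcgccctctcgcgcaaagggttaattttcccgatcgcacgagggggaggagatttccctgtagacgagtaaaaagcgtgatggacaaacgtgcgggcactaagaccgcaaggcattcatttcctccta
Acly: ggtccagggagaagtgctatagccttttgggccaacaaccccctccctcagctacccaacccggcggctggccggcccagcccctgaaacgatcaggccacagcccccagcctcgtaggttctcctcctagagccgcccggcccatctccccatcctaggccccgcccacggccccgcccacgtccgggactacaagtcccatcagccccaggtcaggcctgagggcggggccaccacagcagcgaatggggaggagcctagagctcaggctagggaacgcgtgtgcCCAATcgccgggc
Fasn: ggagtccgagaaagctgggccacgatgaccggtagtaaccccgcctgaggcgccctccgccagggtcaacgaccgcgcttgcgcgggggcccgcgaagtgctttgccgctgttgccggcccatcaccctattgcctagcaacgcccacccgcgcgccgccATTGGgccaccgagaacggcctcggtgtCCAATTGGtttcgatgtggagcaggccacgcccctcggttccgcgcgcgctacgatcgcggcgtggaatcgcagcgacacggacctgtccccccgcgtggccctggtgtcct
CCAAT occurred 1 time in the Acly window, 3 times in that of Fasn (a pair of them overlapping on opposite strands) and 0 times in that of Elovl6. CACGTG occurred in none of the 3 windows. A RefSeq window was found for 22 of the 25 fatty acid synthesis genes measured, and CCAAT or its reverse complement was in 14 of them (63.6%), compared with 36.8% of the 3114 windows of tested genes and 37.4% of all 32851 windows. CACGTG was in 4 of the 22 (18.2%), compared with 10.3% of the tested genes' windows. The letters GGGCGG, known as a GC box, were in 14 of the 22 (63.6%), compared with 70.7% of those windows. The motifs were chosen after the expression values were seen, and a match is a description of the letters only.

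Over the whole fatty acid synthesis list, 21 of 25 members had negative differences (median -0.35), beside 59.3% of all genes and a median of -0.11. In 4 members every MPX library lay below every CPX library (Elovl6, Acly, Acaca and the elongase Elovl5), beside 7.71% of all genes. In 1 every MPX library lay above, beside 8.52% of all genes (G6pdx, the first enzyme of the pentose phosphate pathway). G6pdx was at 243, 91.1 and 235 CPM in CPX against 277, 380.3 and 336 CPM in MPX (log2 difference 0.80, SE 0.43). Acetate use and desaturation overlapped between the groups. Acss2, which makes acetyl-CoA from acetate, was at 458, 94.7 and 304 CPM in CPX and 76.3, 84.9 and 149 CPM in MPX, overlapping through CPX 6. Scd1, the desaturase that makes oleate, stood at 54909.5, 10356 and 49348 CPM in CPX and 37142, 32554 and 41222 CPM in MPX, a log2 difference of -0.05 (SE 0.74). Srebf1, which encodes the lipogenic factor SREBP1, had a difference of -0.01 (SE 0.44) (the sign of both this and the Scd1 value changed with the scaling), and Mlxipl, which encodes ChREBP, -0.47 (SE 0.78). The median depended on the CPX library left out: it was -0.73 without CPX 6, -0.05 without CPX 4 and -0.32 without CPX 8. With summed adipocyte markers at 9477 CPM in CPX 6 and 112136 CPM in CPX 4, the part of adipocyte content in these values was not tested.

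Mitochondrial fuel choice and the glycerol phosphate shuttle were represented by Pdk1 and Gpd2, both lower in MPX. Pdk1, a kinase that switches pyruvate dehydrogenase off, was at 164, 128 and 80.9 CPM in CPX and 52.9, 42.4 and 33.9 CPM in MPX (log2 difference -1.53, SE 0.34, DESeq2 adjusted p = 0.00251). Gpd2, the mitochondrial glycerol-3-phosphate dehydrogenase, was at 230.0, 84.9 and 147 CPM in CPX and 62.0, 54.3 and 57.4 CPM in MPX (log2 difference -1.41, SE 0.39). The MPX values of Gpd2 spanned 54.3 to 62.0 CPM and those of CPX 84.9 to 230.0 CPM. Pdk1 was the only member of 28 genes of pyruvate entry and the citric acid cycle whose groups did not overlap, beside 16.2% of all genes. That list had 12 positive and 16 negative differences (median -0.02), while 59.3% of all genes had negative ones. Its median was 0.46 without CPX 4 and -0.42 without CPX 6. Fatty acid oxidation had 15 of 21 positive differences (median 0.26), beside 40.7% of all genes. The median was -0.13 without CPX 6, where 8 were positive, and 0.76 without CPX 4, where all 21 were positive. The list's 1 member without overlap was Cpt1a, the gate for fatty acids into mitochondria. Every MPX library lay above every CPX library for 8.52% of all genes. Cpt1a was at 39.2, 121 and 102 CPM in CPX and 180.3, 213 and 167 CPM in MPX (log2 difference 1.10, SE 0.43). Among 13 glycolysis genes 7 had positive differences (median 0.02), beside 40.7% of all genes. In 1 of them every MPX library lay above every CPX library, near the 8.52% of all genes. It was Pfkfb3, which makes an activator of glycolysis, at 935, 382 and 823 CPM in CPX and 1000.5, 1335 and 1223 CPM in MPX. Branched chain amino acid breakdown had 0 of 17 members without overlap (median -0.04), beside 16.2% of all genes, and its direction depended on the CPX library left out. Without CPX 4 all 17 had positive differences (median 0.54), and 5 lay above both remaining CPX libraries, beside 19.9% of all genes in that fit. Without CPX 6, 16 had negative ones (median -0.42), and 6 lay below both, beside 15.6% of all genes in that fit.

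Respiratory chain transcripts depended on which CPX library was left out. All 10 mitochondrially encoded members in the table had negative differences (median -1.01), beside 59.3% of all genes. But their mean log2 level was 1.77 above the 6-library mean in CPX 4, 0.15 above in CPX 8, and 0.34 to 0.71 below in CPX 6 and MPX. Without CPX 4 the median was -0.09. Without CPX 6 it was -1.39, and all 10 lay below both remaining CPX libraries (15.6% of all genes in that fit) with an unadjusted p under 0.05. mt-Co1, a cytochrome oxidase subunit, was at 64868 CPM in CPX 4, 17280 and 23587 CPM in CPX 6 and 8, and 15469 to 16811 CPM in MPX, and it was the 1 member without overlap. Of 59 nuclear-encoded members, 50 had negative differences (median -0.37), beside 59.3% of all genes, and 0 were without overlap, beside 16.2%. Their median was 0.42 without CPX 4, with 39 above both remaining CPX libraries, beside 19.9% of all genes in that fit. Without CPX 6 it was -0.70, with 7 below both, beside 15.6% of all genes in that fit.

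Genes that accompany the growth of fat mass stood higher in MPX. Of 15 members in the table, 13 had positive differences (median 1.42), beside 40.7% of all genes, and in 8 every MPX library lay above every CPX library, beside 8.52% of all genes. The list was chosen with earlier results of these data known, so these shares are a description and no independent support. Lep, which encodes leptin (chromosome 6, 29060220 to 29073877 in mm10, plus strand), was at 870.0, 83.4 and 1284 CPM in CPX 4, 6 and 8 and at 1571, 6985 and 4085 CPM in MPX 2, 5 and 7 (log2 difference 2.50, SE 1.06, unadjusted p = 0.0535, edgeR adjusted p = 0.645). MPX 2 lay much nearer to CPX 8 than to MPX 5. Mest, an imprinted gene tied to adipocyte enlargement, was at 15.9, 3.25 and 84.7 CPM in CPX and 146, 1305 and 612 CPM in MPX (log2 difference 4.31, SE 1.38). Sfrp5, a secreted modulator of Wnt signalling, was at 17.3, 2.14 and 89.1 CPM in CPX against 216, 742 and 457 CPM in MPX (log2 difference 3.70, SE 1.28). The order of the MPX libraries was the same for all 3 genes, with MPX 5 highest and MPX 2 lowest, and CPX 8 was the highest CPX library in each. Peg3, another imprinted gene, was at 53.8, 15.4 and 131 CPM in CPX and at 179.5, 809.8 and 336 CPM in MPX (log2 difference 2.73, SE 0.91). DESeq2 gave adjusted p values of 0.00566 for Mest, 0.0171 for Sfrp5, 0.0302 for Peg3 and 0.145 for Lep. The table keeps only genes with at least 8471 counts over the 9 libraries. Within these 6, Mest, Sfrp5 and Peg3 could reach that only through MPX. Their gaps and p-values are therefore descriptions and no independent support. Mest had 44 to 1115 counts in CPX and 2126 to 17471 in MPX. Sfrp5 had 29 to 1174 and 3145 to 9941.

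The other 4 members without overlap were Trp53inp2, Npr3, Bmp3 and Slc7a10, with log2 differences of 1.96, 1.79, 1.42 and 1.30. Npr3, the clearance receptor for natriuretic peptides, was at 542, 92.4 and 1221 CPM in CPX and 1358, 2741 and 2331 CPM in MPX. Vegfa (log2 difference -0.12) and Igf1 (-0.05) were the members with negative differences. CPX 6, where adipocyte markers were lowest, was the lowest library for Lep, Mest, Sfrp5, Peg3 and Npr3. Without CPX 6 the list median was 0.90. In that fit 8 members lay above both remaining CPX libraries, beside 14.5% of all genes, and 2 lay below both, near the 15.6% of all genes. Without CPX 8 the median was 2.05.

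**Figure D4:**
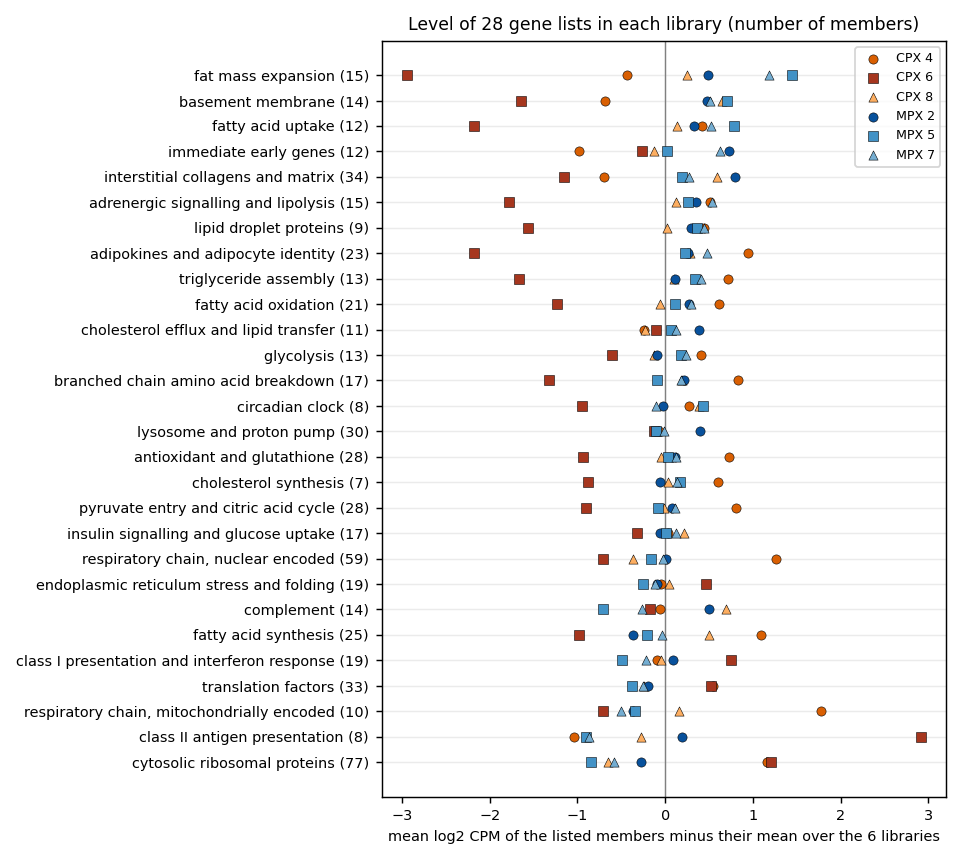
Mean log2 CPM of each gene list in each library, relative to the mean of the 6 libraries (x axis), for 28 lists ordered by the difference between the groups, 1 point per library. CPX points spread far wider than MPX points: the ribosomal protein list lies at 1.16 and 1.20 in CPX 4 and 6 and at -0.65 in CPX 8, while MPX spans -0.85 to -0.28.

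Within the pathway from adrenergic receptors to lipolysis, 4 of 15 genes were higher in every MPX library than in any CPX library, beside 8.52% of all genes, and 9 had positive differences (median 0.54), beside 40.7% of all genes. Adcy5, an adenylyl cyclase (chromosome 16, 35154877 to 35305738 in mm10, plus strand), was at 76.3, 55.1 and 131 CPM in CPX and 384, 371 and 343 CPM in MPX. Its lowest MPX library was 2.62 times its highest CPX library, the widest such gap among genes higher in MPX (log2 difference 2.07, SE 0.38, DESeq2 adjusted p = 7.65e-06). Adcy6, a related cyclase, was at 176, 115 and 242 CPM in CPX and 302, 357 and 306 CPM in MPX (log2 difference 0.86, SE 0.35, DESeq2 adjusted p = 0.167). Gnas, which encodes the stimulatory G protein that turns cyclases on, was at 94.5, 46.5 and 47.6 CPM in CPX and 119, 143 and 128 CPM in MPX (log2 difference 1.05, SE 0.34, DESeq2 adjusted p = 0.0974). Mgll, the lipase that releases the last fatty acid from glycerol, was at 1106, 191 and 1229 CPM in CPX and 1925, 2720 and 2373 CPM in MPX (log2 difference 1.47, SE 0.72). These were the 4 without overlap. The beta-3 adrenergic receptor gene Adrb3 was at 847, 59.1 and 568 CPM in CPX and 324, 31.7 and 312 CPM in MPX (log2 difference -1.14, SE 1.11). Pnpla2, the first triglyceride lipase, had a difference of 0.21 (SE 0.77) and Lipe, hormone-sensitive lipase, 0.70 (SE 0.75). Without CPX 6 the list median was 0.18. In that fit 4 members lay above both remaining CPX libraries, beside 14.5% of all genes, and 3 lay below both, beside 15.6%.

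All 12 fatty acid uptake and caveola genes had positive differences (median 0.65), beside 40.7% of all genes, and 2 were without overlap, beside 8.52% of all genes. They were Cavin1, a caveola coat protein, at 1411, 237 and 1422 CPM in CPX and 2228, 3047 and 2452 CPM in MPX, and Cd36, a fatty acid translocase, at 4957, 658 and 4475 CPM against 5383, 6084 and 5612 CPM. Of 9 lipid droplet genes, 7 had positive differences (median 0.57), beside 40.7% of all genes. In 3 of them, all perilipins, the groups were without overlap, beside 8.52% of all genes. Plin4 was at 2082, 348 and 3052 CPM in CPX and 3674, 5087 and 4655 CPM in MPX (log2 difference 1.29, SE 0.79). Triglyceride assembly had 9 of 13 positive differences (median 0.13), beside 40.7% of all genes. Its 1 member without overlap, near the 8.52% of all genes, was Aqp7. This glycerol channel was at 191, 25.4 and 189 CPM against 319.7, 281 and 297 CPM. In all 3 lists CPX 6 was the lowest library, with a mean log2 level 1.56 to 2.18 below that of the 6 libraries, and its adipocyte markers summed to 9477 CPM. The part of adipocyte content was not tested. Without CPX 6 the medians were 0.22 for uptake, 0.17 for droplet proteins and -0.16 for triglyceride assembly, where 4 of 13 were then positive. Of 23 adipokine and adipocyte identity genes, 15 had positive differences (median 0.31, and -0.15 without CPX 6), beside 40.7% of all genes. The groups were without overlap in 4 (Lep, Itih5, Aoc3 and Plin1), beside 8.52% of all genes. Adipoq, which encodes adiponectin, was at 5220, 359 and 2227 CPM in CPX and 2831, 2464 and 3139 CPM in MPX (log2 difference 0.11, SE 0.88). Pparg, the factor that drives fat cell formation, had a difference of -0.37 (SE 0.76), and Pck1, an enzyme of glyceroneogenesis, -0.25 (SE 0.79). Slc2a4, the insulin-responsive glucose transporter, had a difference of 0.01 (SE 0.74) and Insr, the insulin receptor, -0.01 (SE 0.37), both with a sign that changed with the setting.

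Lipid transfer was led by Pltp, the phospholipid transfer protein (chromosome 2, 164839518 to 164857711 in mm10, minus strand), at 90.2, 92.9 and 224 CPM in CPX and 697, 635 and 545 CPM in MPX. Its lowest MPX library was 2.43 times the highest CPX library (log2 difference 2.20, SE 0.46, DESeq2 adjusted p = 0.000188). Of 11 cholesterol efflux and transfer genes, 6 had positive differences (median 0.01), beside 40.7% of all genes. Scarb1, a receptor for high-density lipoprotein, was the other member without overlap (log2 difference 0.39, SE 0.26). These 2 of 11 stand beside 8.52% of all genes. In cholesterol synthesis only 7 of 27 list members were in the table. Hmgcs1, which makes the precursor HMG-CoA, was at 172, 81.3 and 225 CPM in CPX and 347, 494 and 476 CPM in MPX (log2 difference 1.46, SE 0.44, DESeq2 adjusted p = 0.0417), and the other 6 overlapped.

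Matrix and vessel genes were mostly higher in MPX than in CPX 4 and 6, and close to CPX 8. All 14 basement membrane genes (median 0.76) and 28 of 34 interstitial matrix genes (median 0.64) had positive differences, and 4 and 9 of them were without overlap, beside 8.52% of all genes. Thbs1, which encodes the matricellular protein thrombospondin 1, was at 18.7, 75.7 and 72.7 CPM in CPX and 168, 207 and 324 CPM in MPX (log2 difference 2.06, SE 0.58, DESeq2 adjusted p = 0.0149). Within these 6 libraries Thbs1 could reach the table's minimum count only through MPX, so its gap and p-value are no independent support. Col18a1, a basement membrane collagen, was at 118, 46.2 and 243 CPM in CPX and 470.4, 438 and 439 CPM in MPX (log2 difference 1.73, SE 0.59). Postn, which encodes periostin, was at 119, 201 and 189.9 CPM in CPX and 415, 295 and 243 CPM in MPX (log2 difference 0.90, SE 0.35). The fibrillar collagens overlapped widely, as in Col1a1 at 235, 396 and 1279 CPM in CPX and 2237, 718 and 856 CPM in MPX. Without CPX 8, 13 basement membrane and 24 interstitial matrix genes were without overlap, with medians of 1.64 and 1.41; in that fit 17.5% of all genes were above both remaining CPX libraries. Without CPX 6 the medians were 0.32 and 0.39. All 13 endothelial markers in the table had positive differences (median 0.61), beside 40.7% of all genes. The groups were without overlap in 4, beside 8.52% of all genes. Among these was Cldn5, a tight junction protein, at 129, 108 and 177 CPM in CPX and 192, 363 and 215 CPM in MPX. Summed endothelial markers were at 1504 to 2853 CPM in CPX and 2705 to 3849 CPM in MPX; their part in the basement membrane values was not tested.

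The 12 genes higher in MPX with the smallest p and no overlap included several not yet described. Gpc1, the cell surface proteoglycan glypican 1, was at 34.3, 39.0 and 41.2 CPM in CPX and 66.7, 184 and 143 CPM in MPX (log2 difference 1.78, SE 0.40). Fam20c, a kinase of secreted proteins, was at 32.9, 22.1 and 51.1 CPM against 65.8, 198 and 146 CPM, and Chpf, which helps build chondroitin chains, at 42.8, 43.1 and 53.5 CPM against 78.8, 99.6 and 102 CPM. Palld, an actin-bundling protein, and Map7d1, a microtubule-associated protein, had log2 differences of 1.69 (SE 0.42) and 1.21 (SE 0.29). Nek6, a mitotic kinase, was at 38.3, 53.2 and 63.1 CPM in CPX and 105, 109 and 105 CPM in MPX. Noct, which encodes nocturnin, a phosphatase of nicotinamide dinucleotides, was at 33.6, 21.8 and 41.9 CPM against 69.9, 90.7 and 116 CPM, and Fam129b had a difference of 1.24 (SE 0.25). Gpc1 and Chpf varied little within CPX: the SD was 3.52 CPM around a mean of 38.2 CPM for Gpc1 and 6.14 CPM around 46.4 CPM for Chpf. These 24 genes, 12 in each direction, have the smallest p among genes without overlap, antibody segments and clones left out. All were also among the 52 that DESeq2 called. Of those 52, 48 were without overlap, and the libraries were the same, so this is no independent support.

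**Figure D5:**
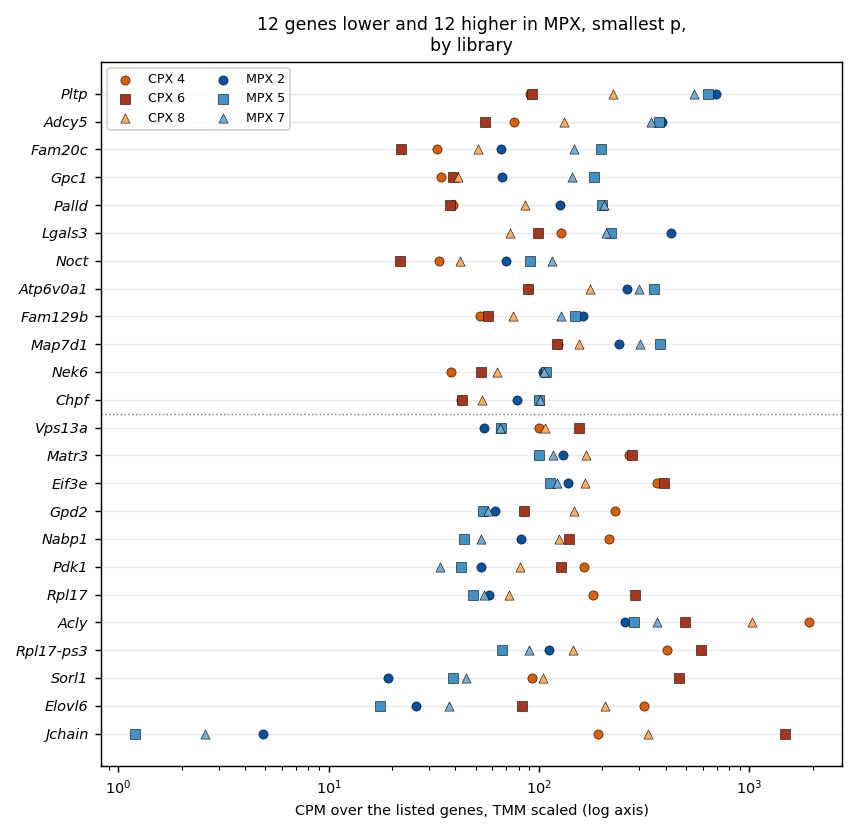
CPM (x axis, log scale) of the 24 genes with the smallest p and no overlap (antibody segments and clones left out), 1 point per library: 12 lower in MPX below the dotted line and 12 higher above it. Adcy5 and Pltp show the widest gaps among the higher genes (2.62-fold and 2.43-fold between the nearest libraries), and Jchain the widest of all (39.0-fold).

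Macrophage and lysosome genes gave a mixed picture. All 11 lipid-associated macrophage markers in the table, several of which adipocytes also express (Cd36, Lpl, Plin2), had positive differences (median 0.76), and 4 were without overlap, beside 8.52% of all genes. Lgals3, which encodes galectin 3, was at 127, 98.6 and 73.2 CPM in CPX and 425, 220.0 and 209 CPM in MPX (log2 difference 1.52, SE 0.39, DESeq2 adjusted p = 0.0141). Gpnmb, a glycoprotein of lipid-laden macrophages, was at 35.5, 14.0 and 87.2 CPM in CPX and 458, 132 and 157 CPM in MPX (log2 difference 2.45, SE 0.81). MPX 2 was the highest library for both. Within these 6 libraries both could reach the table's minimum count only through MPX, so their differences are descriptions and no independent support. The 11 markers summed to 5256 CPM in CPX 6, 20019 to 20343 CPM in CPX 8 and 4, and 20366 to 26814 CPM in MPX. Of 16 resident macrophage markers 7 had positive differences (median -0.04), and Timd4 was at 3.66, 358 and 22.2 CPM in CPX and 6.72, 1.79 and 3.53 CPM in MPX. Among 30 lysosome and proton pump genes 16 had positive differences (median 0.02), and 4 had every MPX library above every CPX library, a share near the 8.52% of all genes. They were the protease Ctsl and the proton pump subunits Atp6v0a1, Atp6v1a and Atp6v1b2. Atp6v0a1 was at 88.5, 88.3 and 175 CPM in CPX and 263, 351 and 301 CPM in MPX (log2 difference 1.38, SE 0.36), and Atp6v1a, at 126 to 158 CPM against 167 to 187 CPM, had a difference of 0.29 (SE 0.22).

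Immediate early genes, transcribed soon after a stimulus or after handling of the tissue, had 11 of 12 positive differences (median 0.79), beside 40.7% of all genes, and 4 were without overlap, beside 8.52%. Jun was at 69.1, 85.7 and 125 CPM in CPX and 199.8, 146 and 148 CPM in MPX (log2 difference 0.82, SE 0.31), and Dusp1, a phosphatase of MAP kinases, at 95.9, 53.0 and 157 CPM against 224, 179 and 252 CPM. Fos was at 339 and 173 CPM in MPX 2 and 7 but at 21.8 CPM in MPX 5, inside the CPX range of 9.61 to 39.6 CPM. Of 8 clock genes in the table, 4 had positive differences, beside 40.7% of all genes. Cry2 alone was without overlap, near the 8.52% of all genes. Per1, a clock repressor that is also an early response gene, was at 71.2, 56.6 and 119 CPM in CPX and 63.6, 175 and 138 CPM in MPX.

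Ribosomal protein genes were highest in CPX 4 and 6, and CPX 8 lay with the MPX libraries. All 77 ribosomal protein genes in the table, of 82 in the list, had negative differences (median -1.33, from -2.90 to -0.67), beside 59.3% of all genes. At an unadjusted p under 0.05 there were 41 of them, beside 4.09% of all genes. That count was 2 without MPX 5, 3 without MPX 7 and 14 without MPX 2. The shares of all genes in those fits were 0.51%, 0.73% and 1.62%. Without CPX 4 the count was 7, near the 8.82% of all genes in that fit. It was 23 without CPX 6 and 76 without CPX 8, beside 6.44% and 7.58% of all genes. In 15 every MPX library lay below every CPX library, beside 7.71% of all genes. Rps6, a small subunit protein, was at 1490, 1999 and 487 CPM in CPX 4, 6 and 8 and 449, 299 and 381 CPM in MPX (log2 difference -1.82, SE 0.59). Rpl29, a large subunit protein, was at 475, 490.1 and 203 CPM in CPX against 174, 133 and 153 CPM in MPX (log2 difference -1.34, SE 0.41). In both, CPX 8 stood just above the highest MPX library and far below the other CPX libraries. Without CPX 8, 76 of the 77 genes were without overlap, beside 16.2% of all genes in that fit, and the median was -1.71. Without CPX 6 the median was -1.09, with 16 genes below both remaining CPX libraries, beside 15.6% of all genes in that fit. Without CPX 4 the median was -1.11, also with 16 genes, a share near the 19.6% of all genes in that fit. Of 24 rows annotated as pseudogenes, 23 also had negative differences (median -1.47). One of them, Rpl17-ps3, was at 407, 588 and 145 CPM in CPX and 111, 66.5 and 89.2 CPM in MPX; its reads cannot be told from those of its parent gene Rpl17 with certainty. The letters CTTTT, found in the pyrimidine tract at many ribosomal protein starts, were searched on the gene's strand only, from 10 bases before to 20 after the RefSeq start. They were in 5 of 57 ribosomal protein windows (8.77%), compared with 2.18% of tested genes' windows and 3.10% of all windows.

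Translation factors were also highest in CPX 4 and 6, with smaller differences. Of 33 in the table, 32 had negative differences (median -0.59) and 9 had every MPX library below every CPX library, beside 7.71% of all genes. Eif3e, a subunit of initiation factor 3, was at 363, 392 and 166 CPM in CPX and 137, 113 and 121 CPM in MPX (log2 difference -1.31, SE 0.38, DESeq2 adjusted p = 0.0417). The 1 factor with a positive difference was Eif4g1, the scaffold of the cap-binding complex, at 574, 519 and 659 CPM in CPX and 730.0, 962 and 986 CPM in MPX, without overlap (log2 difference 0.61, SE 0.34). Endoplasmic reticulum folding and stress genes had 15 of 19 negative differences (median -0.35) and 6 members below every CPX library, beside 7.71% of all genes. Herpud1, part of the machinery that clears misfolded proteins, was at 159, 190.1 and 121 CPM in CPX and 87.4, 91.5 and 88.8 CPM in MPX (log2 difference -0.81, SE 0.26). Xbp1, a factor of the unfolded protein response and of plasma cells, was at 428, 289.9 and 388 CPM against 278, 234 and 272 CPM. The part of plasma cells in these values was not tested.

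Several antibody genes were lower in every MPX library, while others were high in CPX 6 alone. Jchain, which links antibody chains into multimers (chromosome 5, 88519809 to 88527891 in mm10, minus strand), was at 190.0, 1487 and 330.2 CPM in CPX 4, 6 and 8 and at 4.87, 1.20 and 2.58 CPM in MPX, on counts of 71, 16 and 38 there. The lowest CPX library was 39.0 times the highest MPX library (log2 difference -7.85, SE 1.17, DESeq2 adjusted p = 1.41e-19). The table keeps only genes with at least 8471 counts over the 9 libraries. Within these 6, Jchain (2075 to 20137 counts in CPX) and Igkc (10176 to 154033) could reach that only through CPX. Their gaps and p-values are therefore descriptions and no independent support. Igkc, the kappa light chain constant region, was at 932, 11375 and 2301 CPM in CPX and 20.2, 8.51 and 11.2 CPM in MPX (log2 difference -8.51, SE 1.32), and Ighm, the heavy chain of IgM, at 1553, 5908 and 4499 CPM against 444, 1159 and 984 CPM. For these 3 genes every CPX library lay above every MPX library. Ighg1, a heavy chain of IgG, was without overlap too, but was at 7899 CPM in CPX 6 and at 11.6 and 2.96 CPM in CPX 4 and 8, against 0.068 to 0.75 CPM in MPX. Ighd, the heavy chain of IgD, was at 1298 CPM in CPX 6 and overlapped otherwise, at 3.11 and 2.43 CPM in CPX 4 and 8 and 3.57 to 7.54 CPM in MPX. Cd79a, a part of the B cell receptor, was at 2.29, 470.5 and 4.78 CPM in CPX and 1.58, 3.36 and 0.61 CPM in MPX, overlapping between the groups. H2-Ob, a class II chaperone subunit of B cells, was at 2.75 and 3.95 CPM in CPX 4 and 8, 340.1 CPM in CPX 6 and 1.70 to 3.02 CPM in MPX. All 8 class II genes had negative differences (median -1.52), beside 59.3% of all genes, and 0 were without overlap, beside 16.2% of all genes. Without CPX 6 the median was 0.08. Antibody genes have near relatives between which reads could be split, so their values are uncertain. Of 10 lymph node stroma markers 4 were in the table, and 3 of them had negative differences (median -2.65). Cxcl13, a chemokine that draws B cells, was at 26.6, 301 and 156 CPM in CPX and 24.8, 0.15 and 6.85 CPM in MPX, while Mfge8, which many cells express, was at 399, 701 and 458 CPM against 648, 1295 and 965 CPM. Mfge8 made up most of the summed level of the 4 in MPX. The part of lymphoid tissue in the values of CPX 6 was not tested.

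Complement and class I genes differed less. C3, the central complement protein, was at 2392, 4446 and 4098 CPM in CPX and 1656, 319.5 and 1121 CPM in MPX (log2 difference -1.82, SE 0.69), and Cd55, which shields cells from complement, at 64.7, 323 and 89.0 CPM against 59.0, 64.3 and 64.4 CPM. These were the members without overlap of 14 complement genes, beside 7.71% of all genes. Of the 14, 9 had negative differences, near the 59.3% of all genes, and the median of -0.35 was 0.17 without CPX 8 and -0.83 without MPX 2. Of 19 class I and interferon genes, 17 had negative differences (median -0.43, and -0.18 without CPX 6, with 5 then positive). Every MPX library lay below every CPX library for 2 of them, near the 7.71% of all genes. B2m, the light chain of class I molecules, was at 3187, 3439 and 2833 CPM in CPX and 2206, 1802 and 2235 CPM in MPX (log2 difference -0.60, SE 0.40). The 3 mast cell proteases in the table had negative differences, and the groups overlapped through MPX 2: Mcpt4 was at 55.1, 199 and 88.2 CPM in CPX and 73.4, 18.1 and 17.3 CPM in MPX. Sorl1, a sorting receptor, was at 92.7, 463 and 105 CPM in CPX and 19.1, 39.1 and 44.9 CPM in MPX (log2 difference -2.68, SE 0.75). Nabp1, a single-strand DNA binding protein, and Vps13a, a lipid transfer protein at membrane contacts, had log2 differences of -1.42 (SE 0.36) and -0.96 (SE 0.26). Matr3, a nuclear matrix protein that binds RNA, was at 269, 277 and 167 CPM in CPX and 131, 99.9 and 117 CPM in MPX (log2 difference -1.04, SE 0.29).

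Of the remaining lists, insulin signalling (17 genes, median 0.01) and antioxidants (28 genes, median -0.09) had 3 members each without overlap, beside 16.2% of all genes. In the first, Tbc1d4, which holds glucose transporters inside the cell, was at 110.3, 219 and 97.2 CPM in CPX and 73.6, 56.5 and 80.5 CPM in MPX. In the second, Sod3, the secreted superoxide dismutase, was at 353, 122 and 511 CPM in CPX and 672, 1158 and 1058 CPM in MPX (log2 difference 1.55, SE 0.59).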

How the data were processed

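RNA from adipose tissue was sequenced in 9 libraries, of which 6 (3 MPX, 3 CPX) were used, grouped and numbered by their titles. The deposited table holds raw counts per gene; reads were aligned with HISAT2 2.0.5 and the build was mm10, per the submitters' processing notes. Which program counted reads, with which annotation and strand option, is not given in the sources used here. The table is cut: every gene has at least 8471 counts over the 9 libraries, so list members below that were not analysed here. Of its 3958 rows, 11 names damaged in storage (10 as dates) were restored from gene IDs, and 3957 IDs are in GENCODE M21. No sample column was left unmapped.

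The main test was edgeR 4.0.16 (TMM, filterByExpr, robust quasi-likelihood, R 4.3.3) on the 6 libraries, with Benjamini-Hochberg adjustment over 3957 genes and a threshold of 0.05. The filter removed 1 gene, Igkv10-96. DESeq2 1.42.0 and limma 3.58.1 (voom) were alternatives. CPM were computed without a prior count, and the SDs of log2 CPM with a prior count of 2. Only the edgeR fit was tested on simulated data. An exact permutation test of 3 against 3 cannot go below p = 0.1, so none is given.

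Named genes are, in each direction, the 12 of smallest p without overlap and at least 50 mean counts (no antibody segments or clones), a fixed set, and up to 4 members of each of 28 gene lists. Ucp1 and Dbp of that fixed set were not in the table. Other list members without overlap, further examples and the motifs were chosen after their values were seen. The members and lists were chosen with earlier results of these data known.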

Additional observations from a re-analysis of the deposited data

How the results depend on the processing

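No paired analysis was possible because the MPX and CPX libraries share no replicate number. Of the settings tried, DESeq2 gave 52 genes past the threshold and all others 0, leave-one-out fits included. Genes at an unadjusted p under 0.05 were 197 higher and 325 lower in MPX with all 9 libraries in the fit. They were 247 higher and 361 lower with DESeq2, and 113 higher and 90 lower with limma voom. Leaving out 1 library at a time gave 33 to 292 higher and 20 to 349 lower. The lowest counts, 33 and 20, came without MPX 5, the highest count of higher genes without CPX 8 and of lower genes without CPX 4. Genes without overlap were 531 higher and 120 lower without scaling factors, and 440 higher and 200 lower with upper quartile factors. They were 387 to 787 higher and 352 to 774 lower when 1 library was left out, since fewer libraries overlap less. The 1 CPM filter removed the same number of genes as the main filter and so says nothing of stability. Of the 101 genes named, 89 kept their sign under every setting tried. Of the other 12, Ighd ran from -6.93 without CPX 4 to 0.93 without CPX 6, the library that held nearly all of its counts, and 11 had small differences. Without scaling factors the log2 difference became 0.14 for Scd1, 0.17 for Srebf1, 0.023 for Vegfa, 0.12 for Igf1 and 0.13 for Insr. With upper quartile factors it became 0.047 for Scd1, 0.094 for Srebf1, 0.046 for Igf1 and 0.078 for Insr. With limma voom it became 0.26 for Scd1, 0.078 for Srebf1, 0.47 for Mlxipl, 0.14 for Vegfa, 0.045 for Igf1, 0.14 for Pparg, 0.032 for Pck1 and 0.066 for Insr. TMM computed without mitochondrial, ribosomal, antibody and B cell genes gave -0.0082 for Slc2a4. Leaving out 1 library at a time, the difference of the small ones ran from -0.51 to 0.31 for Scd1, -0.34 to 0.34 for Srebf1, -0.55 to 0.40 for Vegfa, -0.38 to 0.20 for Igf1, -0.30 to 0.82 for Pnpla2, -0.42 to 1.12 for Adipoq, -0.89 to 0.41 for Pparg, -0.74 to 0.26 for Pck1, -0.51 to 0.66 for Slc2a4 and -0.31 to 0.22 for Insr. In each of these the lowest value came without CPX 6, and the highest without CPX 4, or without CPX 8 for Vegfa and Insr. The cause was not tested.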
